A study of Mus musculus with 24 samples.

Results

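The super elongation complex is an assembly of proteins that helps RNA polymerase II leave its pause near the start of a gene and keep transcribing. The 9 genes described here encode its subunits other than the kinase P-TEFb: the ELL elongation factors Ell, Ell2 and Ell3, the scaffolds Aff1 and Aff4, the YEATS-domain proteins Mllt1 (ENL) and Mllt3 (AF9), and the ELL-associated factors Eaf1 and Eaf2. They were chosen by gene name, and all 9 were found among the 14106 genes of the count table and were tested.

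Poly(A) RNA of primary mouse splenic B lymphocytes in culture was sequenced and reads were counted per gene. Their maturity is given in the labels both as mature and as immature. The stimulus was IL-4 with lipopolysaccharide, for 28 h alone and for another 32 h in the presence of 2 µM 4-hydroxytamoxifen. The 3 Spt5-depleted libraries came from cells whose Spt5 gene had 1 floxed and 1 null allele (Supt5hFl/-), with a tamoxifen-activated Cre recombinase at the broadly expressed Rosa26 locus (Rosa26ERT2-cre/+). The 3 WT libraries came from cells with Rosa26ERT2-cre/+ alone, given the same drug. Both groups thus shared the recombinase and the drug. The null allele was in the depleted cells alone, and its effects and those of the deletion cannot be told apart. The comparison asks how the mRNAs of this complex differ in activated B cells once the gene for Spt5 has been targeted.

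In the complex, AFF1 or AFF4 forms a flexible scaffold on which P-TEFb, an ELL protein, an EAF protein and ENL or AF9 assemble. ELL proteins raise the elongation rate of the polymerase, EAF proteins bind and stimulate ELL, and ENL and AF9 bind acylated histone tails. P-TEFb phosphorylates the polymerase, the pausing factor NELF and Spt5 itself, which turns Spt5 into a positive elongation factor. Several of these genes were found as fusion partners of MLL in leukaemia. In mouse plasma cells ELL2 drives processing of immunoglobulin heavy chain mRNA to its secreted form, and EAF2 promotes death of mouse germinal centre B cells.

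The promoters of the gene pairs whose balance shifted furthest are shown here, Aff1 with Aff4 and Eaf1 with Eaf2. Each is the 250 bases before the most upstream transcript start in RefSeq's table for GRCm38.p6, 5′ to 3′ along the gene's strand. Capitals mark matches on either strand to a CCAAT box (CCAAT), a GC box (GGGCGG), an E-box (CACGTG) or an ETS site (CCGGAAGT). The cAMP response element (TGACGTCA) and the TATA box (TATAAA) were searched as well and have no match in these 4 windows.
Aff1, chr5:103753912-103754161, plus strand: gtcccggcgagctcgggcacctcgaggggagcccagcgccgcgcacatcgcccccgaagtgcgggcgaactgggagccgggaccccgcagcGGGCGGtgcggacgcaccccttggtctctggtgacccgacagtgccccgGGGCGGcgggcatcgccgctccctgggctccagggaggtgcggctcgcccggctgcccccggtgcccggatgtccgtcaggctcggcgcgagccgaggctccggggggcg
Aff4, chr11:53350517-53350766, plus strand: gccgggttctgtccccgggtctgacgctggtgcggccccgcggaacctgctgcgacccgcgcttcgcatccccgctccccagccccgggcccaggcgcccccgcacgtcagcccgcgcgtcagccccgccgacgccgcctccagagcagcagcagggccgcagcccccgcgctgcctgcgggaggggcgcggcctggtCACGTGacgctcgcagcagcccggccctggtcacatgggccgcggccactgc
Eaf1, chr14:31494829-31495078, plus strand: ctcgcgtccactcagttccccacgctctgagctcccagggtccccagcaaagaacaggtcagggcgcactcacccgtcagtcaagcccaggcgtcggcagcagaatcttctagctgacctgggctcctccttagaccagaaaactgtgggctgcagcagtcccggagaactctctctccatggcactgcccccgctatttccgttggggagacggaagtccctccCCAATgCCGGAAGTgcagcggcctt
Eaf2, chr16:36874827-36875076, minus strand: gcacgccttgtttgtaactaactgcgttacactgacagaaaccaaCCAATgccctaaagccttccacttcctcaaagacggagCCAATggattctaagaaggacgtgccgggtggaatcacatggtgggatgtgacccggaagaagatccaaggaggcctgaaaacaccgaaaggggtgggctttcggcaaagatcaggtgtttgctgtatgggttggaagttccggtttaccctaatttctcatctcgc

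The Aff1 window held 2 GC boxes and the Aff4 window held 1 E-box, 52 bases before the start. GC boxes were in 32.7% and E-boxes in 6.02% of the 32851 promoter windows of the same length. The Eaf1 window had a CCAAT box 25 bases and an ETS site 19 bases before the start, and the Eaf2 window had 2 CCAAT boxes and no ETS site. CCAAT boxes were in 33.8% and ETS sites in 2.88% of all windows. G and C made up 78.8% of the Aff1 window and 79.2% of the Aff4 window, against 62.0% for Eaf1 and 50.4% for Eaf2. Aff1 has 2 annotated starts and Eaf2 has 3, of which 1 each is shown. The counts are per gene and do not say which start was used.

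The Spt5-depleted libraries held 17306549, 20216180 and 21441575 counts, and the WT libraries 25036970, 23340978 and 25649611. Supt5, the targeted gene, averaged 11.1 ± 2.26 CPM in Spt5-depleted and 170.5 ± 18.7 CPM in WT libraries (CPM, TMM-normalised counts scaled to library size; SD, n = 3 each). Whether the replicates are separate animals is not stated in the labels, and the p-values then reflect only the spread between libraries, which may be technical. The B cell markers Cd79a, Cd79b, Ms4a1, Pax5 and Cd22 summed to 3671 to 4282 CPM in Spt5-depleted and 4145 to 4291 CPM in WT libraries. Cd22 fell and the other 4 did not pass the test. The 6 T cell markers summed to 6.59 to 18.2 CPM in Spt5-depleted and 14.4 to 15.0 CPM in WT libraries, and none was higher or lower (0 of 6 by edgeR, 0 at an unadjusted p under 0.05, 0 by DESeq2's Wald test and 1 lower by limma-voom). In edgeR 3 of the 6 were lower without Spt5-depleted replicate 2, and 1 was lower with the replicate block. The macrophage markers summed to 28.0 to 62.8 CPM in Spt5-depleted and 23.5 to 32.1 CPM in WT libraries. Of their 6 tested genes 4 rose, beside 31.8% higher over all tested genes. Fcgr1 had at most 6 counts in any library and was not tested. The 4 include Csf1r, which passed the filter on low counts only through the Spt5-depleted libraries. It had 9, 35 and 31 counts there, against 6, 13 and 8 counts in WT libraries. Only 2 passed as higher without WT replicate 1, and likewise 2 with a minimum mean of 5 CPM. Kdm5d, Uty, Ddx3y and Eif2s3y, which are Y-linked, summed to 128 to 148 CPM in Spt5-depleted and 0.0412 to 0.136 CPM in WT libraries, so genotype and the sex of the source mice cannot be told apart. By RefSeq, none of the 9 genes lies on X or Y. The part of other cells or sex in the results was not tested.

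Of the 9 genes, Aff1, Eaf1 and Ell rose, Mllt3 and Eaf2 fell, while Aff4, Ell2, Ell3 and Mllt1 missed the threshold. The test was edgeR's quasi-likelihood test over all 12024 tested genes, with a Benjamini-Hochberg adjusted p under 0.05 as the threshold. Over all tested genes 62.4% passed, 31.8% higher and 30.6% lower, so 5 of 9 is near the background. The median log2 fold change of the 9 genes was 0.20, beside 0.0047 for all tested genes, and their median absolute log2 fold change was 0.40, beside 0.44. Aff1 was the 1 gene of the 9 to change at least 2-fold. The 9 genes together had 870, 868 and 971 CPM in Spt5-depleted libraries, against 868, 915 and 761 CPM in WT libraries. The summed level overlapped between groups, as did Aff4, Ell2 and Ell3, while the other 6 genes did not overlap. That is near the background, since 67.5% of all tested genes did not overlap. In these bulk libraries, less RNA per cell and fewer cells of a type that expresses a gene cannot be told apart.

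**Figure D1:**
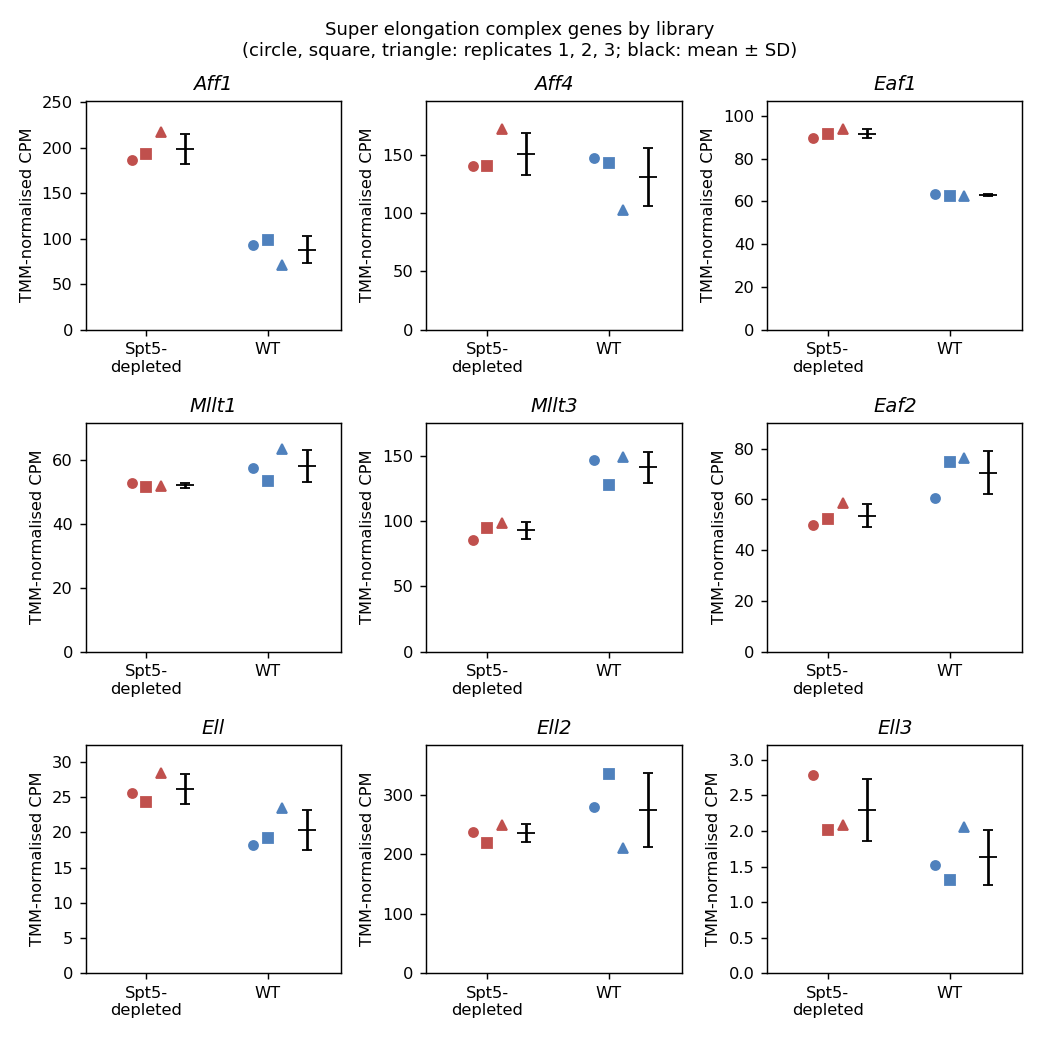
TMM-normalised CPM of the 9 genes in each library, with Spt5-depleted libraries on the left of each panel and WT libraries on the right; circles, squares and triangles are replicates 1, 2 and 3, black marks are the mean and SD, and each axis starts at 0. The Spt5-depleted libraries lie above every WT library for Aff1, Eaf1 and Ell and below every WT library for Mllt3, Eaf2 and Mllt1. Groups did not overlap for 67.5% of all tested genes.

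The scaffold genes changed unequally. Aff1 had 186, 193 and 217 CPM in Spt5-depleted libraries, against 93.5, 98.8 and 71.2 CPM in WT libraries. Every Spt5-depleted library was far above every WT library. Aff1 rose 2.26-fold (log2 fold change 1.18 ± 0.12 SE, edgeR adjusted p = 1.26e-06), a larger log2 fold change than 92.2% of tested genes had. Its log2 fold change stayed between 1.04 and 1.34 in all alternatives run, among them leaving out each library in turn.

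Aff4, the other scaffold gene, had 139.8, 140.1 and 171.5 CPM in Spt5-depleted libraries, against 147.0, 142.9 and 102.2 CPM in WT libraries. The groups overlapped, with Spt5-depleted replicate 3 high and WT replicate 3 low. Its log2 fold change was 0.20 (95% interval -0.089 to 0.50, edgeR adjusted p = 0.205), so a rise of up to 1.41-fold is within the interval. Aff4 passed as higher when libraries were scaled by their totals alone (log2 fold change 0.37, edgeR adjusted p = 0.0394). The log2 fold change was 0.050 without WT replicate 3 (edgeR adjusted p = 0.674) and 0.10 without Spt5-depleted replicate 3 (edgeR adjusted p = 0.573). The name of its row ends in a suffix that may stand for overlapping genes, and RefSeq's GRCm38.p6 table places a pseudogene, a small nuclear RNA and a microRNA in the same interval.

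Within each library the ratio of Aff1 to Aff4 counts is free of the scaling between libraries. There were 1.33, 1.37 and 1.27 Aff1 counts per Aff4 count in Spt5-depleted libraries, against 0.636, 0.691 and 0.697 in WT libraries. The groups stood well apart, with a mean of 1.32 ± 0.0544 in Spt5-depleted and 0.675 ± 0.0334 in WT libraries (SD, n = 3 each). On the log2 scale the ratio was higher by 0.97, a 1.96-fold shift toward Aff1 (exact permutation test, two-sided, p = 0.1, 0.2 adjusted over 6 pairs). With 3 libraries against 3 the smallest p this test can give is 0.1. Leaving out any 1 library kept the shift between 0.93 and 1.00. Counts are not per transcript length, so the ratio compares libraries and does not say which scaffold mRNA was the more abundant.

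**Figure D2:**
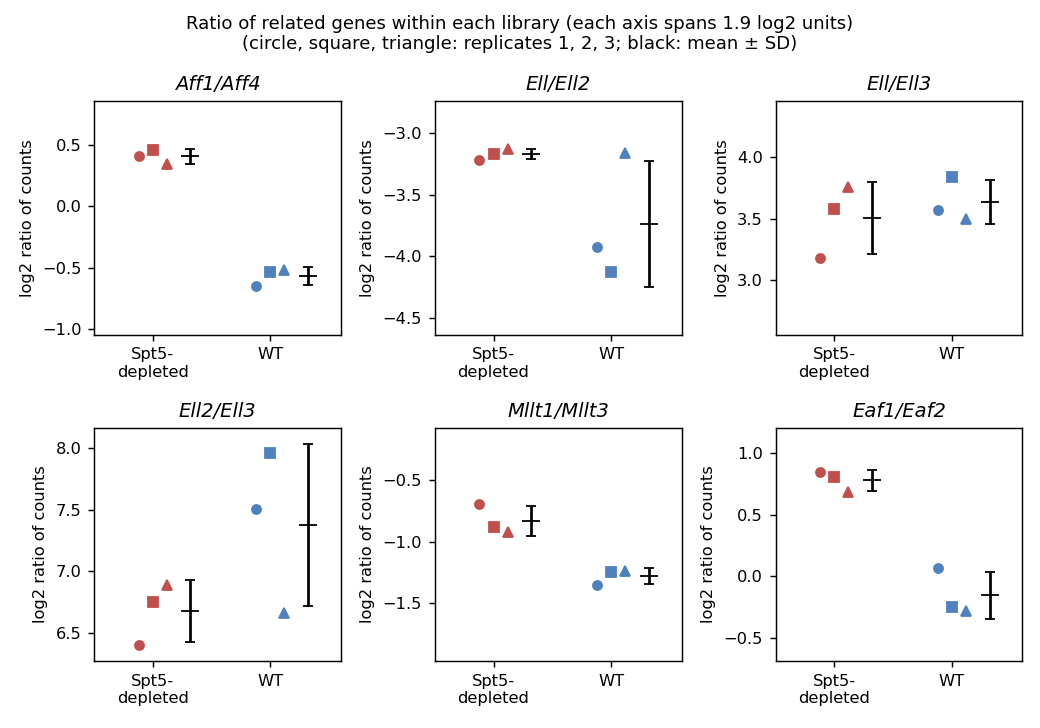
Log2 ratio of the counts of related genes within each library for 6 pairs, with Spt5-depleted libraries on the left and WT libraries on the right of each panel; symbols are replicates, black marks are the mean and SD, and all axes span the same range. The groups do not overlap for Aff1/Aff4, Mllt1/Mllt3 and Eaf1/Eaf2, and they overlap for the 3 pairs of ELL genes. Each pair without overlap had an exact two-sided permutation p of 0.1 (0.2 adjusted over 6 pairs), the smallest this test can give unadjusted.

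The ELL-associated factors moved in opposite directions. Eaf1 had 89.9, 91.4 and 94.0 CPM in Spt5-depleted libraries, against 63.5, 62.8 and 62.6 CPM in WT libraries. The values within each group were close, with coefficients of variation of 2.29% in Spt5-depleted and 0.745% in WT libraries, and the groups were far apart. Eaf1 rose 1.46-fold (log2 fold change 0.54 ± 0.081 SE, edgeR adjusted p = 3.81e-05).

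Eaf2 had 49.9, 52.3 and 58.5 CPM in Spt5-depleted libraries, against 60.7, 74.7 and 76.2 CPM in WT libraries. All Spt5-depleted values were below all WT values, though the highest of the depleted and the lowest of the WT libraries nearly met. Eaf2 fell (log2 fold change -0.40 ± 0.10 SE, edgeR adjusted p = 0.004), and it did not pass with library totals alone (log2 fold change -0.23, edgeR adjusted p = 0.0686). In GRCm38.p6 the gene overlaps Iqcb1, a ciliary protein gene, and the strand setting of the counting is not given in the sources used here, so reads of either could have been split between them. Iqcb1 averaged 18.0 ± 2.53 CPM in Spt5-depleted and 29.3 ± 1.52 CPM in WT libraries (SD, n = 3 each; log2 fold change -0.70, edgeR adjusted p = 8.35e-05). Neither the Eaf2 nor the Iqcb1 row bears the suffix of the Aff4 row.

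The log2 ratio of Eaf1 to Eaf2 counts was 0.85, 0.80 and 0.68 in Spt5-depleted libraries, against 0.065, -0.25 and -0.28 in WT libraries. The groups did not overlap. The difference was 0.94, a 1.91-fold shift toward Eaf1 (exact permutation test, two-sided, p = 0.1, 0.2 adjusted over 6 pairs), and it ranged from 0.87 to 1.05 when any 1 library was left out.

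Of the YEATS-domain genes, Mllt3 fell and Mllt1 did not pass the test. Mllt3, the gene of AF9, had 85.7, 95.1 and 98.5 CPM in Spt5-depleted libraries, against 147, 128 and 149.6 CPM in WT libraries. The highest Spt5-depleted library was well below the lowest WT library. Mllt3 was 1.52-fold lower (log2 fold change -0.60 ± 0.093 SE, edgeR adjusted p = 5.27e-05). Of all tested genes 17.6% had a lower log2 fold change. In GRCm38.p6 Mllt3 overlaps a long non-coding RNA gene that is not among the counted genes.

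Mllt1, the gene of ENL, had 53.0, 51.6 and 51.9 CPM in Spt5-depleted libraries, against 57.7, 53.7 and 63.5 CPM in WT libraries. All Spt5-depleted values were below all WT values by a small margin, but the log2 fold change of -0.16 (95% interval -0.35 to 0.032) did not pass (edgeR adjusted p = 0.134). It was -0.0015 with library totals alone (edgeR adjusted p = 0.990) and -0.099 without WT replicate 3 (edgeR adjusted p = 0.317). Of the 9 genes 6 had groups that did not overlap, 3 with the Spt5-depleted libraries above and 3 below. Over all tested genes 67.5% did not overlap, 34.2% with the Spt5-depleted libraries above and 33.3% below. The log2 ratio of Mllt1 to Mllt3 counts was -0.69, -0.88 and -0.92 in Spt5-depleted libraries, against -1.35, -1.25 and -1.24 in WT libraries. The groups did not overlap, and the ratio was higher by 0.45 in Spt5-depleted libraries (exact permutation test, two-sided, p = 0.1, 0.2 adjusted over 6 pairs).

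**Figure D3:**
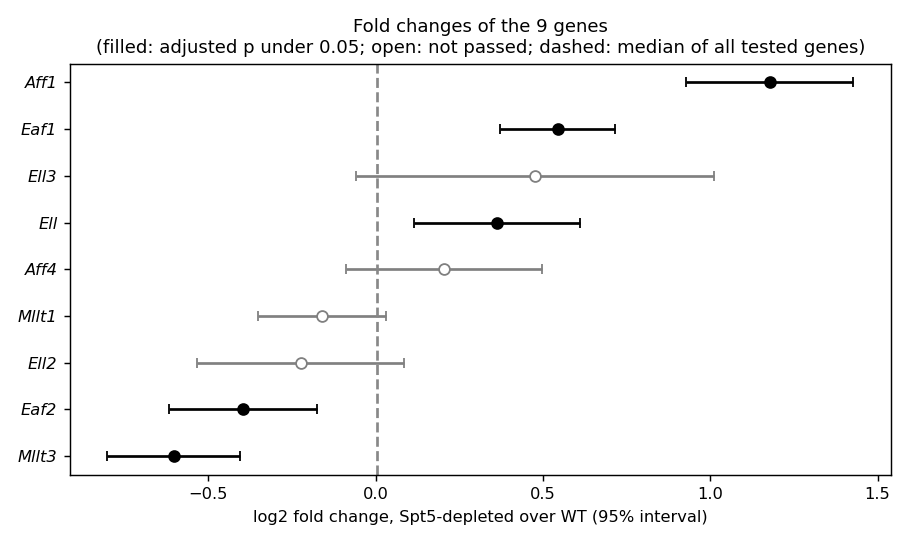
Log2 fold change of each of the 9 genes, Spt5-depleted over WT, with its 95% interval from edgeR; filled points passed an adjusted p under 0.05, open points did not, and the dashed line is the median of all tested genes. Aff1 stands highest at 1.18 and Mllt3 lowest at -0.60.

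Of the ELL elongation factors, Ell rose and the others did not pass. Ell had 25.6, 24.3 and 28.4 CPM in Spt5-depleted libraries, against 18.3, 19.1 and 23.5 CPM in WT libraries. The groups did not overlap, but the lowest Spt5-depleted and the highest WT library were close. The rise was 1.29-fold (log2 fold change 0.36 ± 0.12 SE, edgeR adjusted p = 0.0135). The call was lost without Spt5-depleted replicate 3 (edgeR adjusted p = 0.0671), without WT replicate 1 (0.0533) or without WT replicate 2 (0.0512), with log2 fold changes of 0.30, 0.29 and 0.32.

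Ell2, the form that rises in plasma cells, had 238, 219 and 248 CPM in Spt5-depleted libraries, against 279, 334 and 210.3 CPM in WT libraries. The groups overlapped, with WT replicate 3 below every Spt5-depleted library. The coefficient of variation was 6.40% in Spt5-depleted and 22.7% in WT libraries. In GRCm38.p6 Ell2 overlaps a small nucleolar RNA gene that is not among the counted genes. Its log2 fold change was -0.22 (95% interval -0.53 to 0.084, edgeR adjusted p = 0.185). Without WT replicate 3 Ell2 passed as lower (log2 fold change -0.39, edgeR adjusted p = 0.00247), and without WT replicate 2 its log2 fold change was -0.063 (edgeR adjusted p = 0.663).

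Ell3, known in mice from testis and from enhancers of embryonic stem cells, had a low level, with 50, 43 and 48 counts in Spt5-depleted libraries, against 36, 29 and 50 counts in WT libraries, or 2.79, 2.01 and 2.08 CPM against 1.52, 1.32 and 2.06 CPM. The groups overlapped, and the 95% interval of its log2 fold change of 0.48 reached from -0.059 to 1.01 (edgeR adjusted p = 0.111). A rise of up to 2.02-fold is within that interval. Ell3 passed as higher without WT replicate 3 (log2 fold change 0.68, edgeR adjusted p = 0.0471) and with library totals alone (0.63, edgeR adjusted p = 0.0376).

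The ratio of Ell to Ell2 overlapped between the groups through 1 WT library. The log2 ratio of Ell to Ell2 was -3.21, -3.17 and -3.13 in Spt5-depleted libraries, against -3.93, -4.13 and -3.16 in WT libraries. WT replicate 3 again lay with the Spt5-depleted libraries. The difference of 0.57 had an exact two-sided permutation p of 0.3, which was also the p for Ell2 over Ell3 (difference -0.70, 0.36 adjusted over 6 pairs for both). Without WT replicate 3 the differences were 0.86 and -1.06, each with an exact permutation p of 0.1, the smallest those 5 libraries allow. Without WT replicate 2 they were 0.37 and -0.40. For Ell over Ell3 the difference was -0.13 (exact permutation p = 0.7).

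WT replicate 3 was the lowest WT library for 4 of the 9 genes (Ell2, Aff1, Aff4 and Eaf1) and the highest for the other 5. Spt5-depleted replicate 3 was the highest of its group for 7 of the 9 and the lowest for none (0 of 9). The authors' deposited table, computed from the same counts, gives Aff1 a log2 fold change of 1.17, Eaf1 0.53, Ell 0.35, Mllt3 -0.61 and Eaf2 -0.41. The authors' deposited table has adjusted p-values of 0.0185 or less for these 5 genes and of 0.133 or more for Ell2, Ell3, Aff4 and Mllt1.

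The plasma cell genes around Ell2 went both ways. Of 7 tested genes 2 rose and 2 fell, near the background of 31.8% higher and 30.6% lower over all tested genes. Those that rose were the plasma cell regulator Irf4 and the surface marker Sdc1 (log2 fold changes 0.37 and 0.64). Those that fell were Xbp1 and Mzb1, which serve antibody secretion (-0.70 and -0.80). Jchain, the joining chain of secreted IgM, had 733, 659 and 727 CPM in Spt5-depleted libraries, against 599.9, 1240 and 559 CPM in WT libraries (listed as Igj). As for Ell2, WT replicate 2 was the highest and WT replicate 3 the lowest WT library, and the groups overlapped (log2 fold change -0.18, edgeR adjusted p = 0.664). Xbp1, a regulator of the secretory pathway, had 957, 831 and 889.6 CPM in Spt5-depleted libraries, against 1377, 1669 and 1316 CPM in WT libraries, with no overlap. Prdm1, the regulator that drives plasma cell differentiation, averaged 81.1 ± 8.74 CPM in Spt5-depleted and 78.5 ± 16.3 CPM in WT libraries (SD, n = 3 each; log2 fold change 0.048, edgeR adjusted p = 0.773).

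**Figure D4:**
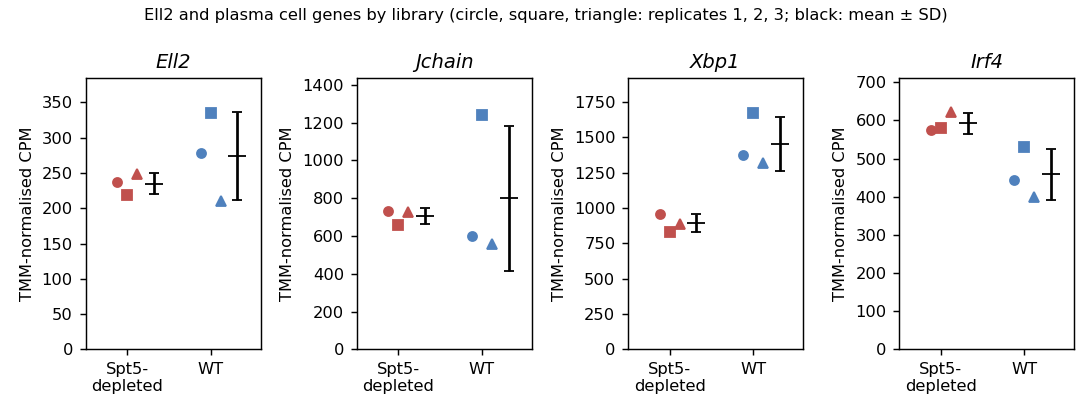
TMM-normalised CPM of Ell2, Jchain, Xbp1 and Irf4 in each library, with Spt5-depleted libraries on the left and WT libraries on the right of each panel; symbols are replicates, black marks are the mean and SD. WT replicate 2 is the highest and WT replicate 3 the lowest WT library in all 4 panels, and the groups overlap for Ell2 and Jchain.

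P-TEFb is the kinase that the complex carries. Of 8 tested genes of P-TEFb and of the 7SK particle that holds it inactive, 3 rose and 1 fell, beside 31.8% higher and 30.6% lower over all tested genes. Ccnt1, the cyclin T1 subunit, had 46.5, 52.0 and 52.0 CPM in Spt5-depleted libraries, against 29.7, 30.4 and 25.6 CPM in WT libraries, with the groups far apart. Its log2 fold change was 0.81 (edgeR adjusted p = 5.68e-06). Cdk9, the kinase subunit, rose as well (0.41, edgeR adjusted p = 0.000842), and so did Mepce, the capping enzyme of 7SK RNA (0.34, edgeR adjusted p = 0.0378). Larp7, which stabilises 7SK RNA, fell to 40.4, 39.7 and 42.3 CPM in Spt5-depleted libraries, against 76.3, 61.6 and 80.0 CPM in WT libraries (log2 fold change -0.83). Hexim1, the inhibitor in the particle, averaged 37.2 ± 2.20 CPM in Spt5-depleted and 33.0 ± 2.01 CPM in WT libraries and did not pass (SD, n = 3 each; edgeR adjusted p = 0.124). Scaled by library totals, 5 of the 8 passed as higher and 1 as lower.

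Of 4 tested relatives of the subunits outside the 9 genes, 2 fell, beside 30.6% lower over all tested genes, and the others did not pass. Aff3, a scaffold homologue expressed in lymphocytes, had 87.8, 90.8 and 94.5 CPM in Spt5-depleted libraries, against 237, 208 and 214 CPM in WT libraries. The groups were far apart (log2 fold change -1.27 ± 0.087 SE, edgeR adjusted p = 1.74e-08), and the direction was opposite to that of Aff1. Yeats4, a YEATS-domain subunit of histone acetyltransferase and remodelling complexes, fell with a log2 fold change of -1.03, while Yeats2 stood at -0.057 and Ocel1, which shares the occludin domain of ELL, at -0.060.

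The little elongation complex is a relative that serves small nuclear RNA genes and also holds ELL. Of its genes, 2 of 2 tested were lower, beside 30.6% over all tested genes. They were Zc3h8, at 3.01 ± 0.389 CPM in Spt5-depleted and 7.91 ± 2.02 CPM in WT libraries, and Ice2, listed as Narg2, at 21.9 ± 1.17 CPM in Spt5-depleted and 27.3 ± 1.17 CPM in WT libraries (SD, n = 3 each; log2 fold changes -1.38 and -0.32). Only 1 of 2 was lower without Spt5-depleted replicate 1, and 1 of 2 with library totals. Ice1, also listed, was not analysed here. Of the DOT1L complex, which shares AF9 and ENL, Mllt6 rose (0.79) and Mllt10 fell (-0.34), and Dot1l itself stood at -0.098. Of 6 genes that recruit the complex, the PAF1 complex subunits Leo1 and Rtf1 fell (-0.43 and -0.30), and Med26, Paf1, Cdc73 and Ctr9 did not pass. Of the SIAH ubiquitin ligases, of which SIAH1 targets ELL2 for degradation, Siah1a rose (0.49), Siah2 fell (-0.53) and Siah1b stood at -0.092. The rows for Ccnt1, Mllt6, Mllt10 and Siah1a bear the same overlap suffix as Aff4. Over these 6 gene groups around the complex, 5 of 26 tested genes rose and 9 fell, beside 31.8% higher and 30.6% lower over all tested genes. With library totals the counts were 8 higher and 6 lower.

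**Figure D5:**
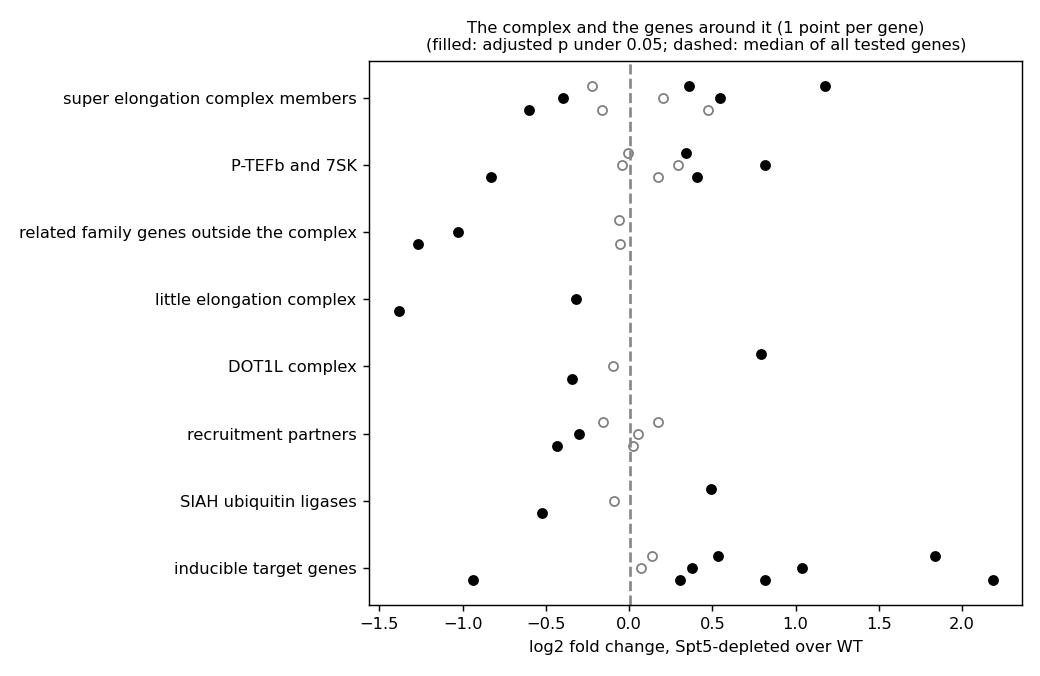
Log2 fold change, Spt5-depleted over WT, of each tested gene of the complex and of 7 gene groups around it, 1 point per gene; filled points passed an adjusted p under 0.05 and the dashed line is the median of all tested genes. The little elongation complex, the recruitment partners and the related family genes have no filled point above 0 (with library totals, 1 recruitment partner passed as higher), and the inducible target genes have 1 below it.

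Immediate early, MYC and heat shock genes are known as inducible targets of the complex. Of 10 tested, 7 rose and 1 fell, beside 31.8% higher and 30.6% lower over all tested genes. The 7 include Hspa1a and Hspa1b, which passed the filter on low counts only through the Spt5-depleted libraries. A minimum mean of 5 CPM left both out, and 5 listed genes then passed as higher and 1 as lower. Under that minimum, 2995 of all 9243 tested genes were higher and 2997 lower. Egr1, an immediate early transcription factor, had 141, 138 and 164 CPM in Spt5-depleted libraries, against 60.2, 90.2 and 65.1 CPM in WT libraries (log2 fold change 1.04, edgeR adjusted p = 4.60e-05). The groups did not overlap. Junb rose (0.81, edgeR adjusted p = 1.74e-06), as did the near-identical heat shock genes Hspa1a and Hspa1b, which stayed below 2 CPM on average and can share reads. Egr2 fell (-0.94, edgeR adjusted p = 9.81e-05), and Fos stood at 0.070. Of the MLL leukaemia targets Hoxa9, Hoxa10 and Meis1, Meis1 had 9, 12 and 9 counts in Spt5-depleted and 6, 6 and 1 counts in WT libraries, too few to be tested, and the others were not analysed here.

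The genes whose pattern over the 6 libraries was most like that of Aff1 were D130040H23Rik, Bach1, a transcriptional repressor, and Etv3, an ETS-family repressor. Likeness was the Euclidean distance between log2 CPM values centred on each gene's mean, over 9243 other genes that averaged 5 CPM or more. Their distances were 0.13, 0.14 and 0.15, and their log2 fold changes were 1.20, 1.17 and 1.15. For Mllt3 the nearest were Eif3a, a translation initiation factor subunit, Tomm40l, a mitochondrial import gene whose row has the overlap suffix, and Sephs1. Their log2 fold changes were -0.64, -0.62 and -0.55, at distances of 0.11, 0.12 and 0.12. For Aff1 and for Mllt3, distance and fold change come from the same 6 libraries. Similar fold changes of the nearest genes therefore follow from how those genes were picked.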

How the data were processed

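RNA-seq of 3 Spt5-depleted and 3 WT libraries was analysed, and the 18 samples of other assays were not analysed here. Per the labels' protocols, RNA was isolated with Trizol and libraries were prepared with Lexogen's SENSE mRNA-seq kit. The submitters' processing notes name mm9, DESeq2 1.10.1, featureCounts 1.5.0-p1, TopHat, Bowtie2 2.1.0 and cutadapt 1.10; annotation and strand setting are not given. The deposited table holds raw counts per gene without normalisation, every gene having at least 10 counts in all. Beside them stand, per gene, a log2 fold change and an adjusted p-value from the authors. Columns named KO were matched to the samples titled Spt5dep by number.

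The software was edgeR 4.0.16, DESeq2 1.42.0 and limma 3.58.1 under R 4.3.3. After filterByExpr 12024 genes remained and were scaled by TMM, which cannot see a change in total mRNA per cell. Groups were compared by the robust quasi-likelihood F test, two-sided, without covariates, and Benjamini-Hochberg adjustment ran over all tested genes. Standard errors and 95% intervals come from the F statistic and cover the spread between libraries. Ratios of related genes used counts plus 0.5 and an exact permutation test over libraries. The tests were tried on simulated data. Pairs of replicates were compared before averaging. Chi-square per degree of freedom was 6.13 to 10.2 for Spt5-depleted pairs and 26.4 to 31.2 for WT pairs, above sampling noise.

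Named genes were the 9 members, Supt5, genes of lists of partners, relatives, targets and cell markers (of each list up to 2 risen and 2 fallen with the smallest p, and others by their role), and the 3 nearest genes to the 2 members that changed most. Iqcb1 was added after its values were seen. Some listed genes are not reported here, and list values leave them out. Members and lists were chosen with earlier results of these data known. Promoter sequences were matched by symbol in RefSeq's GRCm38.p6 table for 9 of 9 members. Alternatives were scaling by DESeq2 size factors or by library totals, no low-count filter or a minimum mean of 5 CPM, limma-voom, DESeq2's Wald test, a replicate block, a prior count of 2 for ratios, and leaving out each library.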

Additional observations from a re-analysis of the deposited data

How the results depend on the processing

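Scaling moved the counts most. With library totals alone the median over all tested genes was 0.16 (log2 fold change), against 0.0047 with TMM, and 64.8% of calls were higher, against 50.9%. Of the 9 genes 5 were then higher and 1 lower, against 3 and 2, and 8 genes of the surrounding groups were higher, against 5. The scaling itself adds about the same shift to every gene. Under the other alternatives that kept all libraries, Aff1, Eaf1 and Ell passed as higher and Mllt3 and Eaf2 as lower. The ratio of Ell to Ell3 turned sign when Spt5-depleted replicate 1 was left out, with differences from -0.26 to 0.033 over the 6 libraries left out in turn. The other 5 ratios kept their sign under the alternatives run for them. No pairing by replicate number was detected: deviations of same-numbered libraries correlated at 0.038, -0.036 and 0.0020. Those of differently numbered libraries correlated at -0.066 to 0.071, so the check cannot say how samples were collected. A replicate block gave 3755 genes higher and 3614 lower, and 3 members higher and 2 lower. Ell3 has no value under a minimum mean of 5 CPM.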
